A study of Mus musculus with 6 samples.

Results

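Expression of 46 cell cycle genes was measured in the vomeronasal organ of wild-type mice and of littermates lacking Cnpy1, a member of the Canopy gene family. The genes were listed by name, for their known roles and not by a threshold on any value, although the list was drawn up with earlier results of these data known. They fall into 17 genes of S phase and 29 genes of mitosis, which are described apart. All 46 were found among the 35450 genes with a transcript in the data, and all 46 were among the 16679 genes with enough reads for a test. The study sequenced poly(A) RNA from 3 wild-type mice (Cnpy1+/+) and 3 knockout mice (Cnpy1-/-), all at postnatal day 60, with 2 males and 1 female in each genotype. Knockout mouse 3 and wild-type mouse 2 are the females. RNA from the organs of both sides of a mouse made 1 library, so each library is 1 mouse. The knockout allele itself is not described in the sources used here.

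Cells that divide switch on these genes in order. Copying of the genome in S phase needs the MCM helicase, its loaders and the enzymes that make deoxynucleotides. In mitosis cyclin-dependent kinase, the spindle, the kinetochores and the anaphase-promoting complex share the copies between daughter cells. The sensory neurons of the vomeronasal organ are replaced through life from dividing progenitors in the epithelium, while the neurons themselves do not divide. Transcription of the S phase genes is known to depend on E2F factors, and that of the mitosis genes on NF-Y, which binds CCAAT boxes, and on the MuvB complexes, which bind a motif called the cell cycle genes homology region (CHR).

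The promoters of the listed genes carry these motifs to different degrees. Windows of 300 bases, from 250 before to 50 after the RefSeq transcription start (GRCm38.p6), were found for 25 of the 29 mitosis genes (26 windows) and for 14 of the 17 S phase genes (15 windows). The windows were searched on both strands, with overlaps between motifs allowed, for the NF-Y box CCAAT, for the CHR as TTTGAA and also as TTTAAA, and for an E2F site. That site was taken as TTCCCGC or as a variant of it, either TTGGCGC or TTCGCGC or else TTGCCGC. Both an NF-Y box and a CHR stood in 21 of the 26 mitosis windows (80.8%), in 3 of the 15 S phase windows (20%) and in 10.7% of all 32851 promoter windows. An E2F site stood in 10 of the 15 S phase windows (66.7%), in 4 of the 26 mitosis windows (15.4%) and in 9.57% of all windows. Among the promoters of the tested genes alone, whose mean GC content of 59.2% is close to that of the mitosis genes (59.4%) and S phase genes (60.8%), the shares were 8.18% for the NF-Y box with the CHR and 14.7% for the E2F site. A match of letters is a description and not a bound site.

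Parts of 5 mitosis promoters are shown because these genes had large or well-measured genotype differences and carry both motifs. Each runs 5′ to 3′ on the strand of the gene and ends 1 base before the RefSeq start, with matches to the NF-Y box (CCAAT, or ATTGG on the other strand) and to the CHR (TTTGAA, with TTCAAA on the other strand, and TTTAAA) in capitals. They lie at chr11:99024190-99024426 (minus strand) for Top2a, chr7:135716380-135716577 (minus) for Mki67, chr4:118437344-118437406 (minus) for Cdc20, chr7:122159336-122159434 (plus) for Plk1 and chr2:164769691-164769928 (plus) for Ube2c.
Top2a: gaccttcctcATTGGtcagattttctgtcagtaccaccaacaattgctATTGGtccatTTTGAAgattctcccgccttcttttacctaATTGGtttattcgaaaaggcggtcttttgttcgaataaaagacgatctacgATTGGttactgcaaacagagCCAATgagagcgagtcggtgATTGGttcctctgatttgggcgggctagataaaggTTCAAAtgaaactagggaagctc
Mki67: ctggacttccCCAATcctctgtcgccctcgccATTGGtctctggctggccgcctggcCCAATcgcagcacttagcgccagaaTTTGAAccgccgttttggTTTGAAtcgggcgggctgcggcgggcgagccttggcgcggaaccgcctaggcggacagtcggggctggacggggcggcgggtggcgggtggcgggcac
Cdc20: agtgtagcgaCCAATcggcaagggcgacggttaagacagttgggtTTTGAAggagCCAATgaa
Plk1: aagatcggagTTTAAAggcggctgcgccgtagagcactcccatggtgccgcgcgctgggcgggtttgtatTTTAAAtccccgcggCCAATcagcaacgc
Ube2c: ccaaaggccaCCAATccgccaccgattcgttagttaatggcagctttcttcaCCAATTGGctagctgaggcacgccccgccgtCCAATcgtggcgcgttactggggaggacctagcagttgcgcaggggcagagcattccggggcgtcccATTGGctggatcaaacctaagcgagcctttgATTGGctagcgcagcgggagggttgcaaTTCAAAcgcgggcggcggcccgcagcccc

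In Top2a, Mki67 and Ube2c the last CHR lies nearer the start than the last NF-Y box, and in Cdc20 and Plk1 an NF-Y box lies nearest. Over all mitosis windows the median distance of a match from the start was -12 bases for the CHR and -69 bases for the NF-Y box, and 21 of the 23 windows with a CHR had one within 50 bases of the start. The genes shown were picked by difference and motif together. Cenpa and Ttk also carry both motifs, with log2 fold changes (knockout over wild type) of 0.07 and 0.11, and Nusap1, with 0.39, carries neither. Whether the motifs go with the difference was not tested.

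For comparison, parts of the promoters of Mcm6 (chr1:128359706-128359824, minus strand) and Mcm5 (chr8:75109335-75109508, plus strand) are shown, the helicase subunits with E2F matches and with knockout values above all wild-type values. Here capitals mark the E2F matches, on either strand, and the NF-Y boxes.
Mcm6: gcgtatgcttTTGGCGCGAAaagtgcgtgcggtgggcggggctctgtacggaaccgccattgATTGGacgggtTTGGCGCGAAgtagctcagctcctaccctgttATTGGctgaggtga
Mcm5: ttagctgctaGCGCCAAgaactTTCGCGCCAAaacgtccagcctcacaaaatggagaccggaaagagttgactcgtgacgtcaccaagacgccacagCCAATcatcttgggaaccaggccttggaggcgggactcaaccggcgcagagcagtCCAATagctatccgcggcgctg

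**Figure D1:**
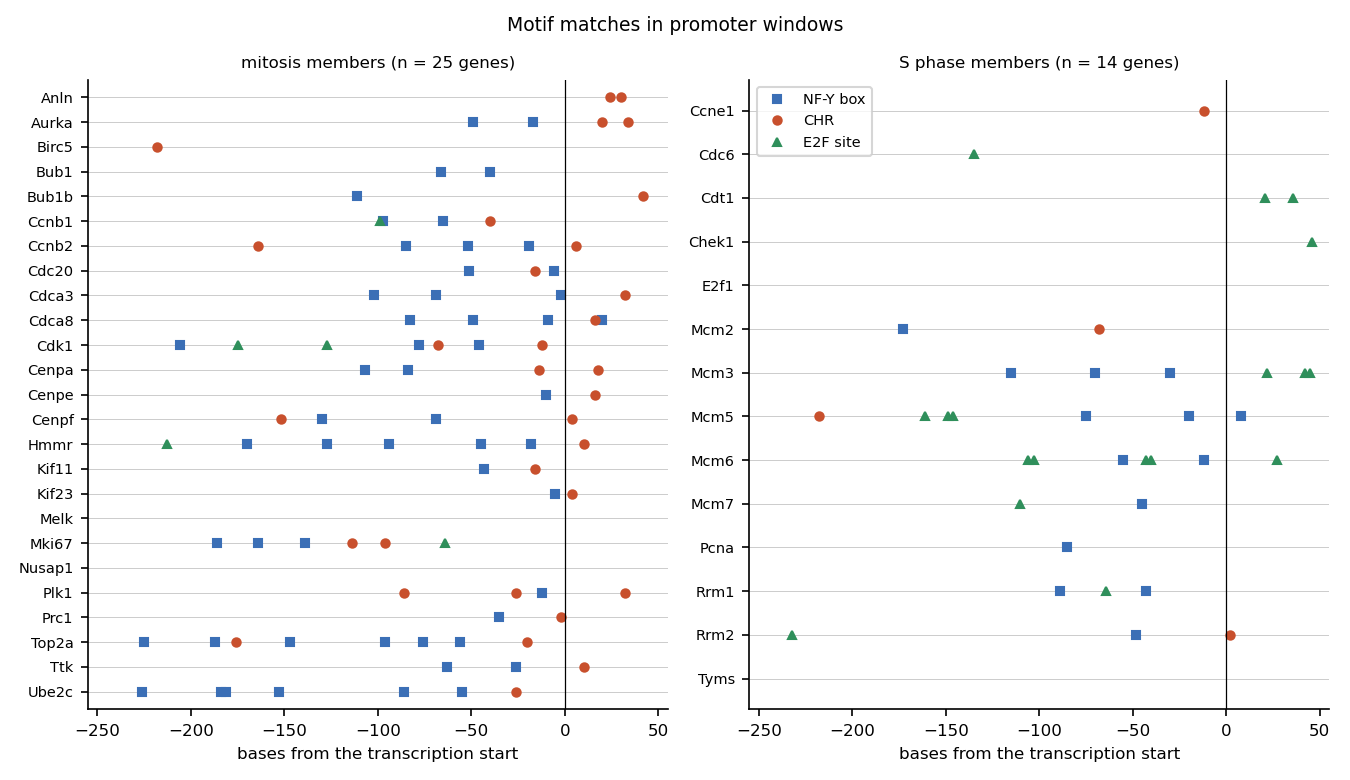
Positions of the centres of NF-Y box (squares), CHR (circles) and E2F (triangles) matches in the promoter windows of the mitosis genes (left, 25 genes) and S phase genes (right, 14 genes), in bases from the transcription start; where a gene had more than 1 window, 1 is drawn. In the mitosis genes CHR matches mostly lie near the start and NF-Y boxes mostly upstream of them, whereas E2F matches stand mainly in S phase genes.

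The libraries held between 60969508 and 71670766 estimated reads. Values below are CPM, a gene's reads relative to all reads in genes of the library after TMM scaling, which sets most genes to the same level in every library. They are compared between mice, within a gene or within the sum of a fixed list, and levels between genes are compared only as TPM, which also accounts for transcript length. The knocked-out gene checked the labels. Cnpy1 lay at 280, 303 and 325 CPM in the wild-type mice and at 67.2, 77.6 and 76.3 CPM in the knockouts, and it fell by 2.04 on the log2 scale (adjusted p = 1.75e-05, from the quasi-likelihood test of edgeR, adjusted by Benjamini-Hochberg over all 16679 genes, as is every adjusted p below unless another tool is named). A gene is described as called where this adjusted p is under 0.05.

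All 46 genes were expressed at low to moderate levels. Mean TPM over the 6 mice ran from 0.60 (Ttk) to 9.46 (Cdk1) among the mitosis genes, with a median of 3.21. Among the S phase genes it ran from 0.555 (Cdc6) to 49.1 (Pcna), with a median of 4.75. Every gene had at least 64 reads in every library.

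Mitosis genes were mostly higher in the knockout. Of the 29, 27 had a positive log2 fold change (knockout over wild type) and 19 (65.5%) were higher in all 3 knockouts than in all 3 wild types, against 7.22% of all genes tested. The median log2 fold change was 0.34, with quartiles of 0.24 and 0.43, against 0.01 for all genes tested. Most of these differences did not pass the threshold one by one. Only Top2a was called, against 0.761% of all genes called in either direction and 0.0779% called higher. At an unadjusted p under 0.05, 18 genes (62.1%) were higher, against 4.55% of all genes, and 1 was lower, against 5.99%. DESeq2 called 5 of the 29 (Top2a, Mki67, Cenpf and Cdc20 higher, Bub1b lower) and 2.45% of all genes, and limma-voom called Top2a and 0.719% of all genes. In RNA of a whole organ, more dividing cells and more of these transcripts per cell cannot be told apart.

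**Figure D2:**
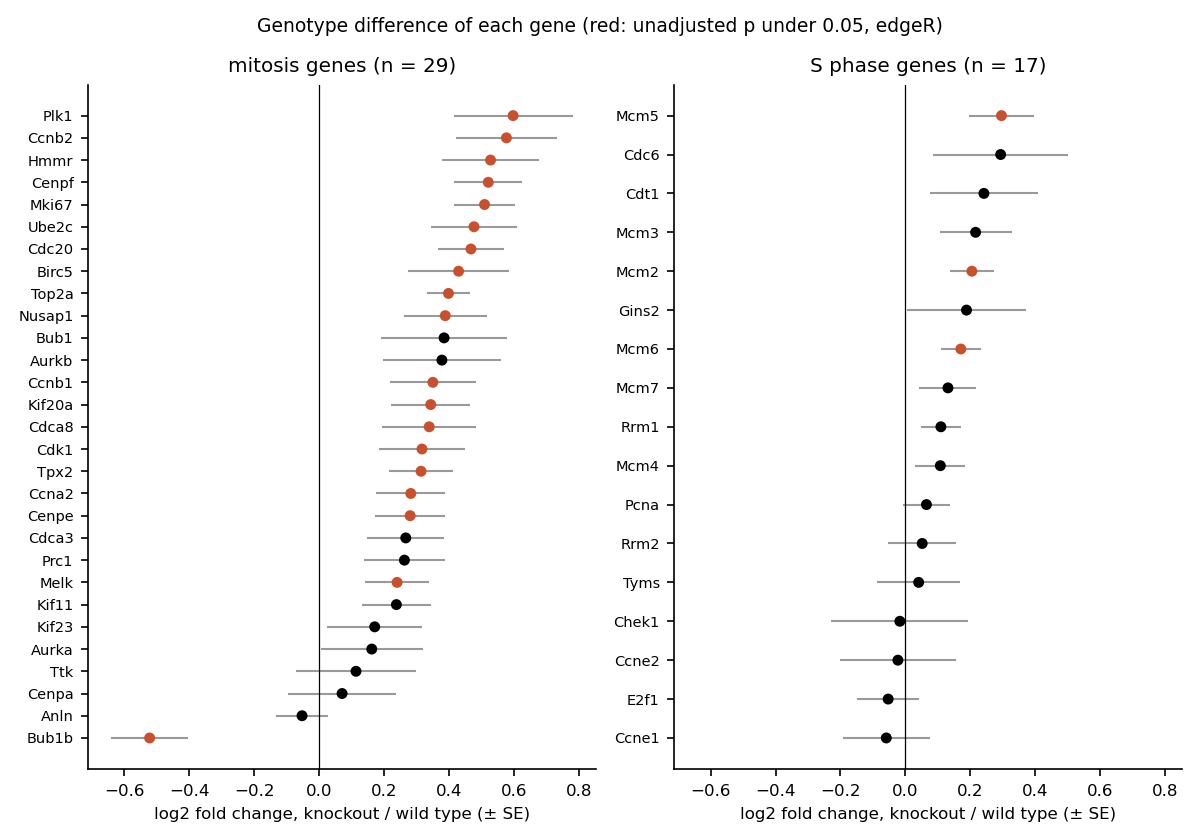
Log2 fold change of each gene, knockout over wild type, with its standard error as a horizontal bar, for the 29 mitosis genes (left) and 17 S phase genes (right); red points have an unadjusted p under 0.05 in edgeR. Most mitosis genes lie between 0.2 and 0.6 with Bub1b alone far to the left, and the S phase genes lie between -0.06 and 0.30.

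Top2a encodes topoisomerase II alpha, which untangles sister chromosomes. It measured 15.8, 17.3 and 16 CPM in wild-type mice 1 to 3 and 21.9, 20.5 and 22.3 CPM in knockout mice 1 to 3, means of 16.4 ± 0.807 and 21.6 ± 0.909 (SD, n = 3 each). The groups did not overlap, and the gap between them was wider than the spread within either. Top2a rose by 0.40 (SE 0.07) on the log2 scale, with an adjusted p of 0.0421. The call was lost in each of the 6 fits that left out 1 library, with an adjusted p between 0.0877 and 0.195 in edgeR, and also without TMM scaling (0.240), with effective lengths as an offset (0.357), with a term for replicate number (0.103), in males only (0.177) and with limma on log2(TPM + 0.1) and log2(TPM + 1) (0.968 and 0.969). The log2 fold change itself lay between 0.37 and 0.44 in the 6 fits that left out 1 library, and at 0.31 with effective lengths, 0.23 on log2(TPM + 0.1) and 0.21 on log2(TPM + 1).

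Mki67, the gene of the proliferation antigen Ki-67 that coats mitotic chromosomes, measured 12.7, 11.7 and 12.9 CPM in the wild types and 17.8, 15.7 and 19.7 CPM in the knockouts. All 3 knockouts lay above all wild types, and the female knockout was highest. The log2 fold change was 0.51 (SE 0.09) with an edgeR adjusted p of 0.0646. Mki67 passed the threshold with DESeq2, with robust estimates of the spread, with no filter on low counts and with a term for replicate number. It passed in no other alternative. Those included no TMM scaling, sex as a term, males only, both TPM scales and each fit that left out 1 library.

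Of the cyclins and their kinase, all 4 genes had an unadjusted p under 0.05 and none was called. Ccnb2, a B-type cyclin, measured 2.33, 2.60 and 3.09 CPM in the wild types and 4.21, 3.43 and 4.33 CPM in the knockouts, without overlap, for a log2 fold change of 0.58 (edgeR adjusted p = 0.224). Cdk1, the kinase that drives entry into mitosis and the mitosis gene with the highest TPM, measured 4.65, 5.66 and 6.22 CPM against 6.62, 6.29 and 7.68 CPM. Here the lowest knockout barely cleared the highest wild type, and the log2 fold change was 0.32 (SE 0.13). The values were 0.35 for Ccnb1 and 0.28 for Ccna2, the A-type cyclin.

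Among the other mitotic kinases, Plk1, the polo-like kinase that acts from mitotic entry to cytokinesis, had the highest log2 fold change of the 29, 0.60 (SE 0.18, unadjusted p = 0.0112). Its knockout values spread widely, from 2.81 to 4.48 CPM, against 2.31 to 2.65 CPM in wild type. Melk lay between 4.64 and 4.86 CPM in the knockouts and between 3.89 and 4.23 CPM in wild type, a log2 fold change of 0.24. Aurora kinase genes were less clear. Aurkb, the kinase of the chromosomal passenger complex, had 0.38 (SE 0.18) and Aurka, the spindle pole kinase, had 0.16 (SE 0.16), both with overlapping groups. The passenger subunits Birc5 (survivin) and Cdca8 (borealin) had log2 fold changes of 0.43 and 0.34, and Birc5 alone of these 4 showed no overlap.

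The spindle checkpoint and the anaphase-promoting complex held values of both signs. Cdc20, which activates that complex, measured 4.73, 5.03 and 4.63 CPM in the wild types and 7.13, 6.05 and 6.71 CPM in the knockouts, without overlap (log2 fold change 0.47, SE 0.10, edgeR adjusted p = 0.116). Ube2c, the ubiquitin-conjugating enzyme of the complex, measured 4.02, 4.43 and 4.01 CPM against 5.53, 5.04 and 6.77 CPM (0.48, SE 0.13). In both genes every knockout lay above every wild type.

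Bub1b, the gene of the checkpoint protein BubR1, went the other way. It measured 10.1, 9.19 and 10.9 CPM in the wild types and 8.05, 6.77 and 6.22 CPM in the knockouts. All 3 knockouts lay below all wild types, which held for 8.95% of all genes tested and for no other listed gene. Its log2 fold change was -0.52 (SE 0.12), with an edgeR adjusted p of 0.137. Every one of its 31-base words is unique to the gene among the transcripts of the annotation, so the value does not depend on reads shared with another gene's transcript. Its partner kinase Bub1 had a log2 fold change of 0.39 (SE 0.19) and Ttk, the kinase at the head of the checkpoint, 0.11 (SE 0.18), both with overlapping groups. The promoter of Bub1b has an NF-Y box and a CHR like most of the others.

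Of the kinetochore genes, Cenpf stood out. It measured 4.71, 4.69 and 5.01 CPM in the wild types and 6.97, 6.18 and 7.53 CPM in the knockouts, and its log2 fold change of 0.52 (SE 0.10) had an edgeR adjusted p of 0.0900. Cenpe, the kinetochore motor, had 0.28 (SE 0.11), again without overlap. Cenpa, the histone variant that marks centromeres in cells at all stages, had 0.07 (SE 0.17), with the knockouts from 3.64 to 5.46 CPM on both sides of the wild types.

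Spindle and cytokinesis genes had log2 fold changes between -0.05 and 0.53. Those with an unadjusted p under 0.05 were Hmmr (0.53), Nusap1 (0.39), Kif20a (0.34) and Tpx2 (0.31), which bind or move microtubules of the spindle. Kif11, the motor that pushes spindle poles apart, had 0.24 and did not overlap, and the midzone genes Prc1 (0.26) and Kif23 (0.17) overlapped. Cdca3, an adaptor in the destruction of mitotic inhibitors, had 0.27 without overlap. Anln, an actin-binding scaffold of the cleavage furrow that is not limited to dividing cells, had -0.05 (SE 0.08) and the knockouts, from 11.5 to 13.4 CPM, lay around the wild types.

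**Figure D3:**
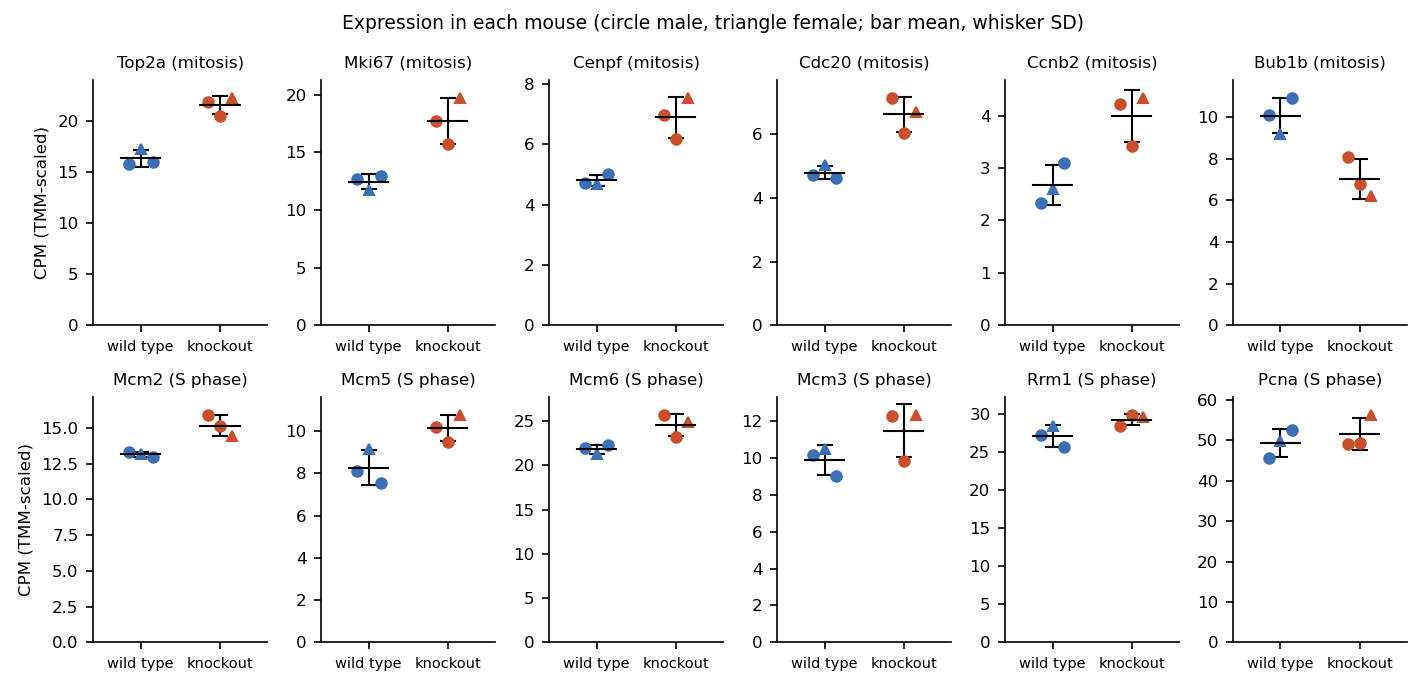
CPM in each mouse for 6 mitosis genes (top) and 6 S phase genes (bottom), with circles for males, triangles for females, the mean as a bar and the SD as a whisker (n = 3 per genotype). Top2a, Mki67, Cenpf, Cdc20 and Ccnb2 are higher in all 3 knockouts, Bub1b is lower in all 3, and Pcna overlaps.

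S phase genes differed less. Of the 17, 13 had a positive log2 fold change, with a median of 0.11, and 3 (17.6%) were higher in all 3 knockouts than in all wild types, beside the 7.22% of all genes given above. Without knockout 3 the median was 0.05 and 11 were positive. None was called by edgeR, DESeq2 or limma-voom, which called 0.761%, 2.45% and 0.719% of all genes. At such shares a count of 0 among 17 genes says little. At an unadjusted p under 0.05 edgeR had 3 genes higher (17.6%, against 4.55% of all genes) and 0 lower.

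Those 3 genes were subunits of the MCM helicase, which opens DNA ahead of the replication fork. Mcm2 measured 13.3, 13.2 and 13.0 CPM in the wild types and 15.9, 15.2 and 14.4 CPM in the knockouts, 0.20 apart on the log2 scale (SE 0.07, edgeR adjusted p = 0.330). Mcm5 measured 8.12, 9.16 and 7.53 CPM against 10.2, 9.49 and 10.7 CPM (0.30, SE 0.10), and Mcm6 measured 21.9, 21.3 and 22.3 CPM against 25.6, 23.2 and 24.9 CPM (0.17, SE 0.06). In each of these 3 genes the groups did not overlap, although the differences were small.

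The other helicase subunits overlapped between genotypes. Mcm3 measured 10.2, 10.5 and 8.98 CPM in the wild types and 12.3, 9.83 and 12.3 CPM in the knockouts (log2 fold change 0.22), where knockout 2 lay among the wild types. Mcm7 measured 16.6, 16.2 and 17.4 CPM against 18.4, 16.3 and 20.3 CPM (0.13), and Mcm4 had 0.11. All 6 subunits thus had positive values, with a median of 0.19.

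The clamp and nucleotide genes had values between 0.04 and 0.11, and the licensing factors had larger values with larger errors. Pcna, the sliding clamp of the replicative polymerases and the listed gene with the highest TPM, measured 45.6, 49.7 and 52.4 CPM in the wild types and 49.1, 49.3 and 56.1 CPM in the knockouts (0.06, SE 0.07). Rrm1, the large subunit of ribonucleotide reductase, measured 27.3, 28.5 and 25.6 CPM against 28.4, 29.8 and 29.6 CPM (0.11, SE 0.06). Both genes overlapped, Rrm1 by a narrow margin. The second reductase subunit Rrm2 had 0.05 and thymidylate synthase, Tyms, had 0.04. The value of Tyms depended on the processing. It was 0.35 with effective lengths as an offset, 0.25 on log2(TPM + 0.1) and 0.23 on log2(TPM + 1). The origin licensing factors Cdc6 and Cdt1 had 0.29 (SE 0.21) and 0.24 (SE 0.17).

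Of the remaining S phase genes 4 had values slightly below 0. E2f1, a transcription factor of the G1/S transition, had -0.05 (SE 0.09). The E-type cyclins Ccne1 and Ccne2 had -0.06 (SE 0.13) and -0.02 (SE 0.18), and the checkpoint kinase Chek1 had -0.02 (SE 0.21). Gins2, a helicase cofactor, had 0.19 (SE 0.18), and 33.8% of its 31-base words are unique to it, since its transcripts overlap Gse1, so its reads are uncertain. Of the 46 genes, 33 had over 90% unique words. Below 75% lay Ccnb1 (72.2%), Cdc20 and Kif20a (73.3% each) and Mcm7 (69.1%) besides Gins2. The genes sharing most words with Ccnb1, Cdc20 and Mcm7 held 1, 0 and 0 reads over all libraries, whereas Kif20a shares sequence with its neighbour Cdc23, which had 15336 reads against 1832 for Kif20a.

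Summed over genes, mitosis transcripts amounted to 152, 158 and 162 CPM in the wild types and 194, 172 and 208 CPM in the knockouts, with means of 157 ± 4.71 and 191 ± 18.2 (SD, n = 3 each). The S phase genes summed to 191, 196 and 197 CPM in the wild types and 209, 202 and 223 CPM in the knockouts. On this scale the knockouts lay above the wild types in both sums. Summed as TPM, which has no TMM scaling, the mitosis genes came to 77.9, 95.2 and 97.7 in the wild types and to 104, 83.5 and 127 in the knockouts, and the S phase genes to 113, 130 and 135 against 127, 111 and 153. Both TPM sums overlapped between genotypes, with knockout 2 among the wild types for mitosis genes, and for S phase genes knockout 1 among them and knockout 2 below them.

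The mitosis genes varied together across mice, so they are not 29 separate observations of the genotype. Knockout 3, the female, was the highest library for 20 of the 29 genes and knockout 1 for 7. Knockout 2 was the lowest of the knockouts for 24 of the 29. The median log2 ratio to the wild-type mean was 0.36, 0.16 and 0.46 in knockouts 1 to 3 and -0.05, 0.01 and 0.02 in the wild types. For the S phase genes it was 0.07, 0.02 and 0.19 in the knockouts.

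The size of the difference varied between pairs of mice, and with 1 female per genotype sex and the single mouse cannot be told apart. With sex as a term in edgeR the medians were 0.34 for mitosis genes and 0.11 for S phase genes. Between the 2 females, with 1 mouse per genotype and no test, 28 of 29 mitosis genes were higher in the knockout, by a median log2 ratio of 0.44. Between the means of the males 26 of 29 were higher, by 0.26. In the S phase genes the values were 15 of 17 (0.18) in females and 12 of 17 (0.05) in males. The count of mitosis genes at an unadjusted p under 0.05 and higher was 18 with all mice, against 4.55% of all genes. It was 10 without knockout 3 (5.42% of all genes), 11 without wild type 1 (3.98%), 11 without wild type 2 (3.2%) and 22 without knockout 2 (5.88%). For S phase genes the count of 3 became 1 without wild type 1 and 5 without knockout 2, against the same shares.

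The deposited TPM separated the genotypes less. On that scale 3 of the 29 mitosis genes (Mki67, Cdc20 and Melk) were higher in all knockouts than in all wild types, against 1.58% of all genes, and no S phase gene was. TPM carries no TMM scaling, and the median over all tested genes relative to the wild-type mean was -0.12, 0.04 and 0.07 in the wild-type libraries and -0.08, -0.22 and 0.05 in the knockouts on the log2 scale. The medians of the mitosis genes in the same libraries were -0.17, 0.05 and 0.09, then 0.23, -0.06 and 0.51. In each knockout library they exceeded the median of all genes, and in knockout 2 they lay below 0. With limma on log2(TPM + 0.1) 26 of the 29 had positive values and 4 were higher at an unadjusted p under 0.05, against 1.07% of all genes in that fit.

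Other genes of the cycle were read as 3 further lists. Of 74 further mitosis genes all were tested, 66 had positive log2 fold changes, 25 (33.8%) were higher and 2 lower at an unadjusted p under 0.05, against 4.55% and 5.99% of all genes, and 0 were called, with a median of 0.26. The 3 with the smallest p were Racgap1, a cytokinesis regulator also used outside division (-0.31, edgeR adjusted p = 0.0579), the condensin subunit Ncapd2 (0.28) and the kinetochore scaffold Knl1 (0.54). Racgap1 measured 83.5, 83.3 and 91.0 CPM in the wild types and 71.1, 68.8 and 68.7 CPM in the knockouts, and like Bub1b it was below every wild type in all 3. Summed over the 74 genes, the wild types held 1233, 1250 and 1270 CPM and the knockouts 1306, 1210 and 1327 CPM. In that sum knockout 2 lay below every wild type.

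Of 45 further S phase genes 33 had positive values, 6 (13.3%) were higher and 1 lower at an unadjusted p under 0.05, against the same 4.55% and 5.99%, and 0 were called, with a median of 0.08. The smallest p belonged to Uhrf1 (0.36), which maintains DNA methylation at forks, to the origin factor Orc1 (1.25, at under 0.6 CPM in every library) and to the polymerase subunit Pole (0.40). The sums of the 45 genes overlapped, at 402.5, 409.3 and 416.2 CPM in the wild types and 414.6, 412.4 and 434.5 CPM in the knockouts. Genes of G1 phase and cell cycle exit had a lower median. Of 39, 38 were tested, 28 had positive values (8717 of 16679 over all genes), 1 (2.63%) was higher and 2 were lower at an unadjusted p under 0.05, below or near the shares of all genes, 0 were called, and the median was 0.04. Cdkn1a, the inhibitor p21, had -0.29 (edgeR adjusted p = 0.129), with 271, 268 and 269 CPM in the wild types and 225, 202 and 234 CPM in the knockouts. The repressor E2f8 had 0.55 and Rb1 had -0.15.

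**Figure D4:**
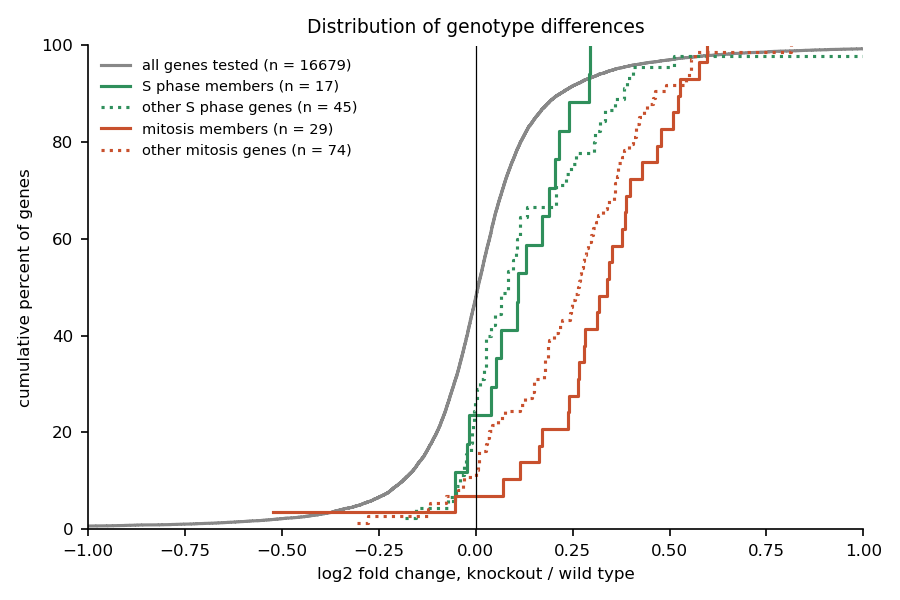
Cumulative percent of genes (vertical axis) against log2 fold change, knockout over wild type (horizontal axis), for the 29 mitosis and 17 S phase genes (solid), the 74 and 45 further genes of each class (dotted) and all 16679 genes tested (grey). At the median the mitosis curves lie at 0.34 and 0.26, the S phase curves at 0.11 and 0.08 and all genes at 0.01, whereas the curves cross in both tails.

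Dividing cells of the organ can belong to several lineages, and marker lists of these were read in the same libraries. Of 10 basal cell markers 8 had positive values with a median of 0.24, and their summed level ran from 418 to 487 CPM in the wild types and from 518 to 560 CPM in the knockouts. One of them, the keratin Krt15, was called higher, as were 0.0779% of all genes (29.3, 25.7 and 28.3 CPM in the wild types, 72.3, 43.0 and 52.2 CPM in the knockouts, log2 fold change 1.01, edgeR adjusted p = 0.0406). The 2 basal cell markers with negative values were Trp63 (-0.13) and Krt17 (-0.11), both with overlapping groups. Of 14 tested neural progenitor markers out of 15, 12 had positive values, 5 (35.7%, against 4.55% of all genes) were higher at an unadjusted p under 0.05, and 0 were called, with a median of 0.18. Their sum overlapped between genotypes, from 768 to 848 CPM against 766 to 871 CPM.

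Neuron markers held both signs, with medians below 0. Of the 12 immature neuron markers 5 were positive (median -0.04), and of the 12 mature vomeronasal neuron markers 4 were positive (median -0.19), with a summed level from 2930 to 3144 CPM in the wild types and from 2620 to 2796 CPM in the knockouts. Vmn2r1, a receptor, and Gnao1, the G protein subunit of basal neurons, were called lower, as were 0.683% of all genes, with log2 fold changes of -0.72 and -0.41. Of the 12 mature markers, 6 were lower in all 3 knockouts than in all wild types, against 8.95% of all genes. Another 2, Gnai2 and Meis2, were higher in all 3, against 7.22% of all genes, with log2 fold changes of 0.17 and 0.14. The high level of the mature markers in every library matches the tissue named in the labels.

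No blood or immune marker was called, beside 0.761% of all genes, and at that share a count of 0 in short lists says little. All 11 macrophage and pan-immune markers had positive values (median 0.15), 4 of them (36.4%, against 4.55% of all genes) higher at an unadjusted p under 0.05, and their sum ran from 432 to 479 CPM in the wild types and from 533 to 644 CPM in the knockouts. Without Lyz2 the sums ran from 324 to 354 CPM and from 355 to 392 CPM, with only a narrow gap. Lyz2, a lysozyme of macrophages, had 0.75 (edgeR adjusted p = 0.0646) and Ptprc, the pan-leukocyte gene, 0.26. Lymphocyte markers summed to 10.4 to 10.8 CPM in the wild types and 10.9 to 14.1 CPM in the knockouts, with 11 of 14 tested and a median of 0.19. Of 13 granulocyte precursor and marrow markers 7 were tested, with a median of 0.31 and a sum, made up mostly of Ltf, which glands also secrete, from 5629 to 7371 CPM against 7488 to 9552 CPM. Without Ltf the sums overlapped, from 218 to 250 CPM against 238 to 408 CPM, with knockout 2 among the wild types. Among those not tested, the precursor genes Elane, Mpo, Ctsg, Ms4a3 and Fcnb had at most 8 reads in any library. Of the other precursor granule genes Prtn3 lay between 1.04 and 1.38 CPM, and Camp had 58 reads in wild type 2 and at most 6 elsewhere. Ngp lay at 1.91 CPM in wild type 2 and at 0.585 CPM or less elsewhere, with a log2 fold change of -1.74. Erythroid markers (11 of 13 tested, median 0.13) overlapped, from 483 to 699 CPM against 509 to 798 CPM.

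Of the remaining lists, 7 of 8 ciliated and respiratory epithelium markers had positive values, with a median of 0.22 and a sum from 9588 to 11450 CPM in the wild types and from 11460 to 13700 CPM in the knockouts. Ltf carried that separation, since without it the sums ran from 4058 to 4325 CPM and from 4206 to 4835 CPM and overlapped. Supporting cell (10 markers, median -0.02), glial (8, -0.07), endothelial and mural (8, 0.01) and cartilage, bone and fibroblast markers (11, -0.002) had medians near 0 and sums that overlapped between genotypes. The sums without Ltf or Lyz2 were added after the values were seen. The part of these cell types in the difference of the mitosis genes was not tested.

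**Figure D5:**
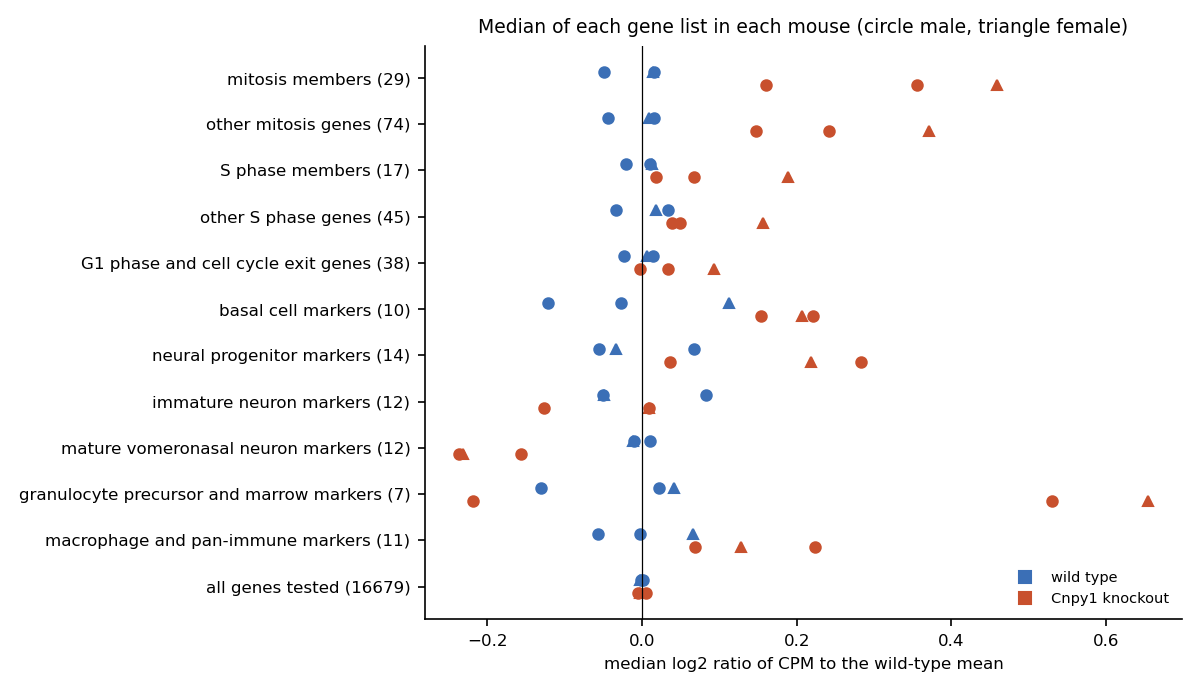
Median over each gene list of the log2 ratio of CPM to the wild-type mean (horizontal axis) in each mouse, blue for wild type and red for knockout, circles for males and triangles for females, with the number of genes tested in parentheses. For the mitosis genes the knockouts lie at 0.16 to 0.46 and the wild types at -0.05 to 0.02. The wild types lie near 0 by the choice of reference, and all genes tested lie close to 0 in every mouse through TMM scaling.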

How the data were processed

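Poly(A) RNA was sequenced from 6 vomeronasal organ samples, each 1 mouse. The authors deposited, per the file headers, an estimated count, a TPM value and an effective length for each of 117081 transcripts per library. Trim Galore 0.6.6, Salmon 1.9.0, DESeq2 and the builds mm10 and GRCm38 are named in the submitters' processing notes, and the transcript index is not given in the sources used here. Estimated counts divide reads among similar transcripts. Here genes came from matching transcript identifiers, version ignored, to GENCODE M21 (GRCm38), where 115942 were found, and those without a gene held 0.304% of reads and were left out. Counts were summed per gene and rounded, and the test planned for whole counts was run on these sums.

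The test was edgeR 4.0.16 (R 4.3.3) with TMM scaling, filterByExpr, genotype as the only term, a quasi-likelihood F test and Benjamini-Hochberg adjustment over 16679 genes. The biological coefficient of variation was 12.8%. A standard error is the log2 fold change divided by the square root of F. No test was made on sums or lists. Values per mouse were given for genes called, the 6 of each class with the smallest p and the 3 with the highest TPM, and of other lists for called genes and the 3 with the smallest p, in part by fold change only. Some further genes of the marker lists were named outside this rule, after the values were seen. The genes, lists and rule were chosen with earlier results of these data known. In all, 18 alternatives were tried, with DESeq2 1.42.0 and limma 3.58.1 among the tools. Promoter sequences are those of RefSeq on GRCm38.p6, and no window was used for Mcm4, Gins2, Ccne2, Ccna2, Aurkb, Kif20a and Tpx2.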

Additional observations from a re-analysis of the deposited data

How the results depend on the processing

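The sign of the median was the same in all 18 alternatives, from 0.17 to 0.42 for the mitosis genes and from 0.03 to 0.13 for the S phase genes, and 26 or 27 of the 29 mitosis genes were positive in each. No S phase gene was called in any, with 69 to 409 genes called in all. The calls and counts of mitosis genes depended on the processing, and the cause was not tested. Mitosis genes called numbered 1 in the main test, 0 without scaling factors, with effective lengths as an offset, with log2(TPM + 0.1) or log2(TPM + 1) and in males only, 2 with robust estimates and with no filter (Top2a and Mki67), and 5 with DESeq2, which called 409 genes in all against 127. Leaving out each library in turn gave 0 to 0 such calls with fewer mice per fit. Mitosis genes higher at an unadjusted p under 0.05 numbered 18 (4.55% of all genes), but 11 without scaling (2.31%), 4 and 5 on the TPM scales (1.07% and 1.01%), 8 in males only (3.75%) and 10 to 22 on leaving out a library (2.67% to 5.88%). For S phase genes the 3 became 0 without scaling, 0 and 0 on the TPM scales and 1 to 5 on leaving out a library. The mitosis median fell to 0.17 with log2(TPM + 1).

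The replicate numbers did not pair the mice, with correlations of same-numbered deviations of 0.15, -0.09 and 0.23. With the number as a replicate block, 1 mitosis gene was called (Mki67, adjusted p 0.0475, in place of Top2a, 0.103, both edgeR), 19 were higher at an unadjusted p under 0.05 (5.92% of all genes, with 154 genes called in all) and the median was 0.33, and for S phase genes these were 0, 3 and 0.11. The log2 fold changes of 9 genes, none called, changed sign in at least 1 alternative. On the scales log2(TPM + 0.1) and log2(TPM + 1), in that order, Mcm7 had -0.025 and -0.022, Pcna -0.010 and -0.0098, Rrm2 -0.010 and -0.0074, Cenpa -0.0064 and -0.0004, and Ccne2 0.052 and 0.033. With effective lengths Ccne2 had 0.13, and with limma-voom Chek1 had 0.0023. In males only Tyms had -0.11, Cdt1 -0.0094 and Cenpa -0.13. On leaving out each library, the values ran from -0.0017 to 0.11 for Pcna, from -0.0058 to 0.11 for Rrm2, from -0.11 to 0.11 for Tyms, from -0.17 to 0.088 for Chek1, from -0.092 to 0.014 for E2f1, from -0.15 to 0.10 for Ccne2 and from -0.13 to 0.18 for Cenpa. Genes with under 2 CPM, such as Chek1, Cdc6, Bub1 and Ttk, had standard errors of 0.18 or more, so a difference of 0.34, the mitosis median, lies within 2 SE there.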
